A study of Drosophila melanogaster with 185 samples.

Results

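DAL neurons are the dorsal-anterior-lateral neurons of the fruit fly Drosophila melanogaster, a pair of large cells in each brain whose fibres reach the mushroom body, the centre for olfactory memory. Their transcripts were set against those of whole flies of the same driver line, to describe what DAL neurons hold over an animal of matched background. The comparison used the 5 DAL control neuron libraries and the 4 DAL whole-fly libraries, 9 of the 101 libraries of the series, which also sampled other mushroom body neurons with and without odour training. Each neuron library held 4 cells, found by the GFP that the driver G0431-GAL4 expresses and drawn from living flies with a patch pipette. The animals were control animals, in which electric shock came ahead of the odour in 8 spaced blocks. The whole-fly libraries are labelled as DAL-GAL4/UAS-GFP background, control training and an uncounted number of cells. Both groups thus carried the GAL4 driver and the UAS-GFP reporter over a w1118 background. Sex, age and the number of animals are not given by sample, and the labels do not say which libraries share an animal, and the p-values below describe only how libraries vary. A whole fly mixes all tissues, so a lower level there can mean fewer cells of a type or less RNA in each, which cannot be told apart.

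DAL neurons are known as a site of protein synthesis for long-term memory. The memory consolidation work on them has centred on the kinase gene CaMKII and the transcription factor gene CrebB, and they have been described by reporter expression of the clock genes cry and per. Neurons that release peptides make long precursors, which convertases and amidating enzymes cut and finish inside dense-core vesicles. The peptides then act on G protein-coupled receptors, beside fast transmitters that open ion channels.

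Neuron libraries 1 to 5 held 7399883, 8786859, 7779775, 7665123 and 17312126 counted reads, and whole-fly libraries 1 to 4 held 7253761, 5489375, 3940149 and 4404049. At an equal depth of 3940149 reads, neuron libraries detected 7234 ± 298 genes (SD, n = 5) and whole flies 9966 ± 155.7 (SD, n = 4), a difference of −2732 (exact two-sided permutation test, p = 0.0159, the smallest that 5 against 4 libraries allow). Neuron libraries were far less alike than whole-fly libraries. The coefficient of variation common to all genes was 1.399 between neuron libraries and 0.4359 between fly libraries. The edgeR fit below used 1 spread per gene for both groups (1.061 common to all genes). Its SE and adjusted p thus assume equal spread in neurons and flies. Pairs of neuron libraries correlated with r between 0.692 and 0.749 across 8515 genes, which are not independent replicates. Whole-fly library 3 stood apart, with r of 0.855 to 0.876 to the other fly libraries, which correlated with each other at 0.958 to 0.976. Its muscle list summed to 168033 CPM (reads per 1000000 counted), against 15605, 58740 and 22321 CPM in fly libraries 1, 2 and 4. Neuron libraries 1 and 2 are labelled 1 lane, and all other libraries here 2 lanes.

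Of 8515 genes tested with edgeR's quasi-likelihood test, 1341 (15.7%) were higher in DAL neurons and 1380 (16.2%) were lower at a Benjamini-Hochberg adjusted p under 0.05. The median log2 fold change of all tested genes was −0.08, so the scaling set the centre of the comparison near 0. This scaling (TMM) lowered the neuron-over-fly log2 fold changes by 0.72 relative to plain CPM ratios, so a gene with higher CPM in neurons can have a fold change near 0. With library totals alone, 1950 genes were higher and 1102 lower, and the higher share of all calls was 63.9% in place of 49.3%. With the size factors of DESeq2 in edgeR it was 40.7% (1106 higher, 1609 lower). Without whole-fly library 3, 1126 genes were higher and 1442 lower. In the libraries labelled 2 lanes alone, 1610 were higher and 1886 lower. Against whole flies of all drivers, 3320 were higher and 2996 lower. All 5 neuron libraries lay above all 4 fly libraries for 1698 genes (19.9%) and below them for 1333 (15.7%).

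**Figure D1:**
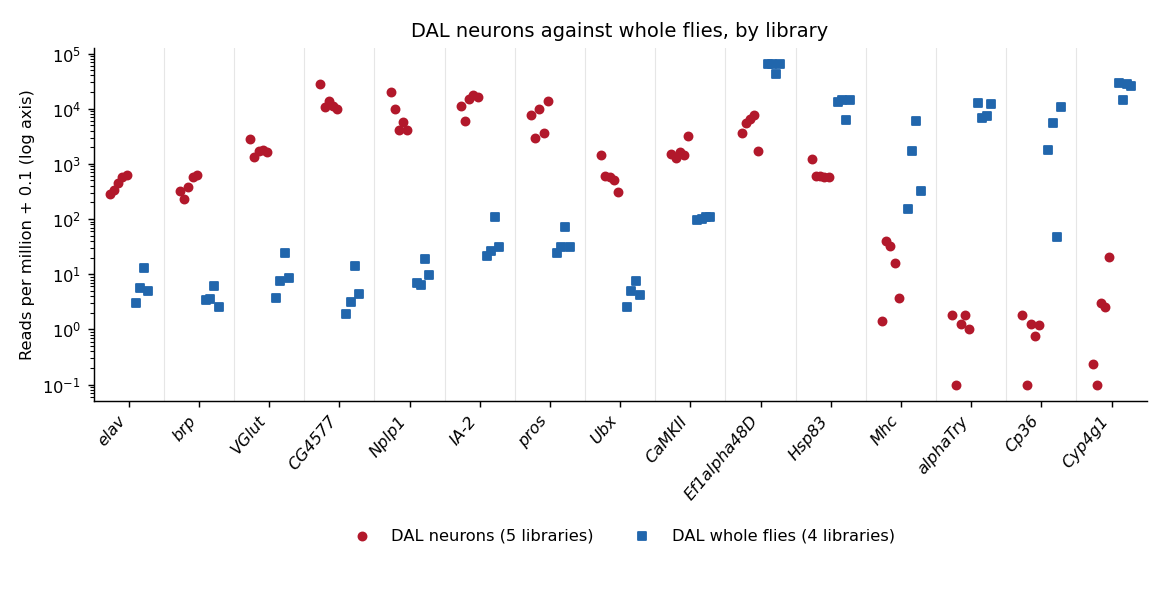
Level of 15 named genes in each library, in CPM plus 0.1 on a log axis, with DAL neurons as circles (5 libraries in order) and DAL whole flies as squares (4 libraries in order). Neuronal genes such as VGlut (1315 to 2832 CPM in neurons, 3.58 to 23.9 CPM in whole flies) and gut, eggshell and oenocyte genes such as alphaTry separate in opposite directions, with no overlap in any gene shown.

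The transcript with the largest share of reads in DAL neurons was noe, a long noncoding RNA. It took 5.01, 5.87, 3.46, 2.12 and 4.10% of reads in neuron libraries 1 to 5, against 0.123, 0.128, 0.355 and 0.104% in fly libraries 1 to 4. Its log2 fold change was 3.63 ± 0.58 (SE, adjusted p = 0.000749 by edgeR), or 4.30 without fly library 3. The gene CG4577, which has no other name in RefSeq, followed with 28224, 10873, 13816, 11282 and 9760.5 CPM in neurons, against 1.79, 3.10, 14 and 4.31 CPM in flies. Every neuron library was above every fly library, and the log2 fold change was 10.38 ± 0.95 (adjusted p = 3.06e-05 by edgeR), or 11.44 without fly library 3. IA-2, which encodes a tyrosine phosphatase-like protein of dense-core vesicles, stood at 5900.4 to 17419 CPM in neurons and 21.2 to 111 CPM in flies. The noncoding RNA CR31451 (lncRNA:mimi) took 4489 to 10231 CPM in neurons and 83.1 to 198 CPM in flies. The homeodomain gene pros had 2945 to 13540 CPM in neurons and 23.7 to 72.3 CPM in flies.

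Both subunits of the sodium pump were among the 15 largest shares of reads. Its beta subunit gene nrv3 had 5133 to 9918 CPM in neurons and 178 to 807 CPM in flies, and its alpha subunit gene Atpalpha had 3608 to 8254 CPM in neurons and 415 to 1057 CPM in flies. The translation factor gene Ef1alpha48D went the other way. It had 3687, 5454, 6479, 7611 and 1713 CPM in neurons, against 63972, 64272, 42064 and 64876 CPM in flies, a log2 fold change of −4.30 ± 0.45 (adjusted p = 6.88e-05 by edgeR). Of the remaining leading genes, Nplp1 and Trissin are peptide genes described below. The noncoding heat-shock RNA Hsromega had 2404 to 15959 CPM in neurons and 2810.1 to 5787 CPM in flies, and the groups overlapped. Hsromega was not called against DAL whole flies (adjusted p = 0.648 by edgeR) but was higher against whole flies of all drivers (log2 fold change 2.07). The yolk genes Yp1, Yp2 and Yp3 and the abundant haemolymph gene Nplp2 are given with the fat body and blood cell genes.

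The 12 largest fold changes among genes above 50 CPM in neurons, with no overlap between the groups, included CG4577 and both peptide genes Nplp1 and npf. CG15863 (Pdrg1) had 3219, 2891, 1823, 2016 and 1815 CPM in neurons, against 4.00, 2.91, 1.02 and 1.36 CPM in flies. The log2 fold change was 9.18 ± 0.57 (adjusted p = 6.44e-06 by edgeR). CG30172 had 359 to 712 CPM in neurons and 0.681 to 0.761 CPM in flies. Sytbeta, a gene of the synaptotagmin family of vesicle proteins, had 412 to 1200.3 CPM in neurons and 0.454 to 1.64 CPM in flies. CG7918 (mAChR-B), a muscarinic acetylcholine receptor gene, had 31.9 to 251 CPM in neurons and reads in only 1 fly library, at 0.364 CPM. The metallothionein gene CG43222 (MtnF) had 144 to 291 CPM in neurons and reached at most 0.681 CPM in flies. The others were CG43324, CG13054, CG15704 and CG8248, at 42.9 to 459 CPM in neurons and at most 0.761 CPM in flies. The selection itself required every neuron library to lie above every fly library. No gene with at least 10 CPM in every neuron library lacked reads in all fly libraries. The reverse, at least 10 CPM in every fly library and no reads in any neuron library, held for 67 genes. A whole fly also holds DAL neurons, so a low count was likely beforehand in the first direction. The counts thus cannot be weighed against each other.

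**Figure D2:**
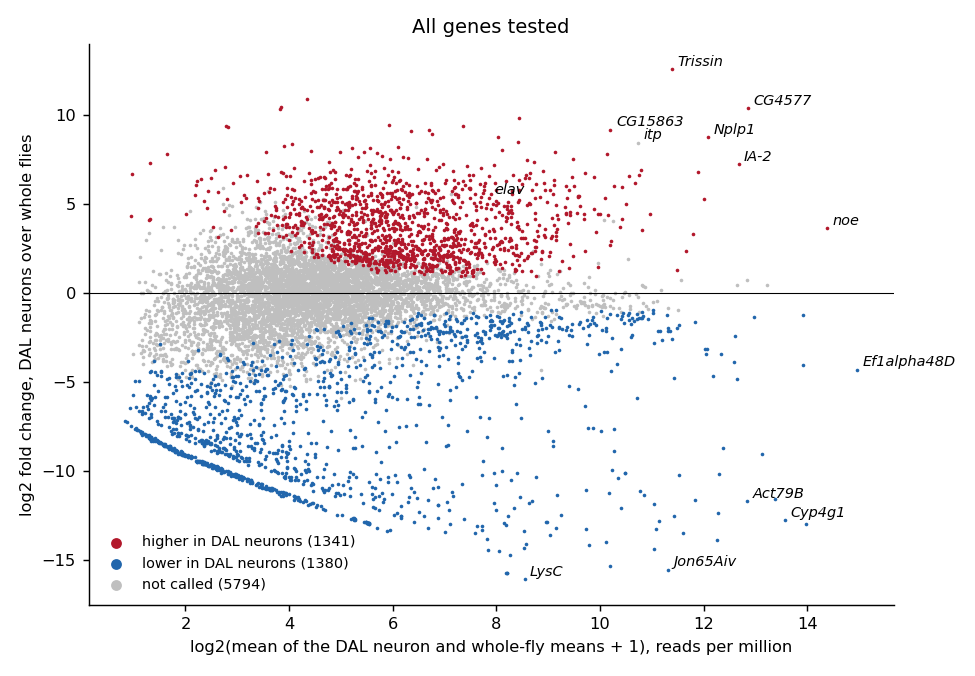
log2 fold change of DAL neurons over whole flies (edgeR) for the 8515 genes tested, against the log2 mean level of both groups, with genes higher in neurons, lower in neurons and not called in separate colours. The lower side reaches further from 0 than the higher side, down to LysC and Jon65Aiv, while CG4577, Nplp1 and Trissin lie at the upper edge.

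Genes that define neurons and their synapses were higher in DAL neurons for 22 of 22 members tested, and none was lower. Their median log2 fold change was 4.65, beside −0.08 over all genes. The RNA-binding protein gene elav, the usual marker of neurons, had 283, 338, 451, 575 and 638 CPM in neurons, against 2.90, 5.65, 12.9 and 4.77 CPM in flies. The active zone gene brp had 228 to 629.6 CPM in neurons and 2.50 to 6.09 CPM in flies, a log2 fold change of 6.04 ± 0.64 (adjusted p = 7.48e-05 by edgeR). The gene fne, for a neuronal relative of elav, had 2543 to 5292 CPM in neurons and 9.79 to 41.9 CPM in flies. The vesicle fusion genes n-syb (1121 to 2258 CPM in neurons, 12.7 to 37.1 CPM in flies) and Snap25 (1218 to 2986 CPM in neurons, 21.9 to 84.0 CPM in flies) showed no overlap either. Complexin, cpx, which clamps vesicle release, had 1444 to 2763 CPM in neurons and 105 to 380.2 CPM in flies. In that fit the log2 fold change of 2.69 ± 0.58 (adjusted p = 0.00387 by edgeR) became 3.33 without fly library 3. The list summed to 1284 CPM in fly library 3 and to 536 to 786 CPM in the other fly libraries, against 14551 to 30731 CPM in neurons.

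Of 15 transmitter identity genes tested, 7 were higher in DAL neurons and none was lower (median log2 fold change 4.03). VGlut, the vesicular glutamate transporter, was present in each neuron library, with 2832, 1315, 1729, 1808 and 1659 CPM, against 3.58, 7.29, 23.9 and 8.63 CPM in flies. Its log2 fold change was 6.54 ± 0.73 (adjusted p = 9.69e-05 by edgeR), or 7.39 without fly library 3. Without any 1 fly library, or without neuron library 5, 4 transmitter genes were higher. Genes of other transmitters varied between neuron libraries. Gad1, which makes GABA, had 1957 and 1729.5 CPM in neuron libraries 3 and 4, but 25.0, 59.2 and 7.39 CPM in neuron libraries 1, 2 and 5, against 32.5 to 184 CPM in flies. It was not called (log2 fold change 2.39 ± 1.46, adjusted p = 0.257 by edgeR), but was higher against whole flies of all drivers (3.90). The vesicular GABA transporter gene VGAT had no reads in neuron library 1 and 50.2 to 146 CPM in the others, against at most 2.79 CPM in flies. VGAT passed the threshold (log2 fold change 4.97, adjusted p = 0.0468 by edgeR). Of the fits without 1 library only that without neuron library 1 kept the call, while the log2 fold change stayed between 4.36 and 5.67. The vesicular acetylcholine transporter gene VAChT had 91.2 to 640.5 CPM in neurons and 2.34 to 10.4 CPM in flies. The log2 fold change of 4.67 ± 0.89 (adjusted p = 0.00192 by edgeR) was 3.66 without neuron library 5. Choline acetyltransferase, Cha, ranged from 0.514 to 208 CPM in neurons, against 0.227 to 6.85 CPM in flies, and was not called (adjusted p = 0.0597 by edgeR, and 0.0491 without neuron library 1 and 0.0169 without neuron library 3). Cha was also called higher with library totals alone (4.85) and against whole flies of all drivers (5.11). Ddc, needed for dopamine and serotonin, had 167 to 1364 CPM in neurons and 8.55 to 23.3 CPM in flies. The cholinesterase gene Ace had 36.5 to 203 CPM in neurons and 4.41 to 14.7 CPM in flies. The vesicular transporter gene prt had 89.6, 48.5, 0.129, 49.4 and 14 CPM in neurons and at most 0.729 CPM in flies. The transporter gene CG7708 had 0.129 to 254 CPM in neurons and at most 3.28 CPM in flies. The calls of prt and CG7708 were each lost without any 1 fly library (log2 fold changes 5.09 to 5.73 and 4.48 to 5.40), and that of CG7708 also without neuron library 5 (log2 fold change 3.07).

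**Figure D3:**
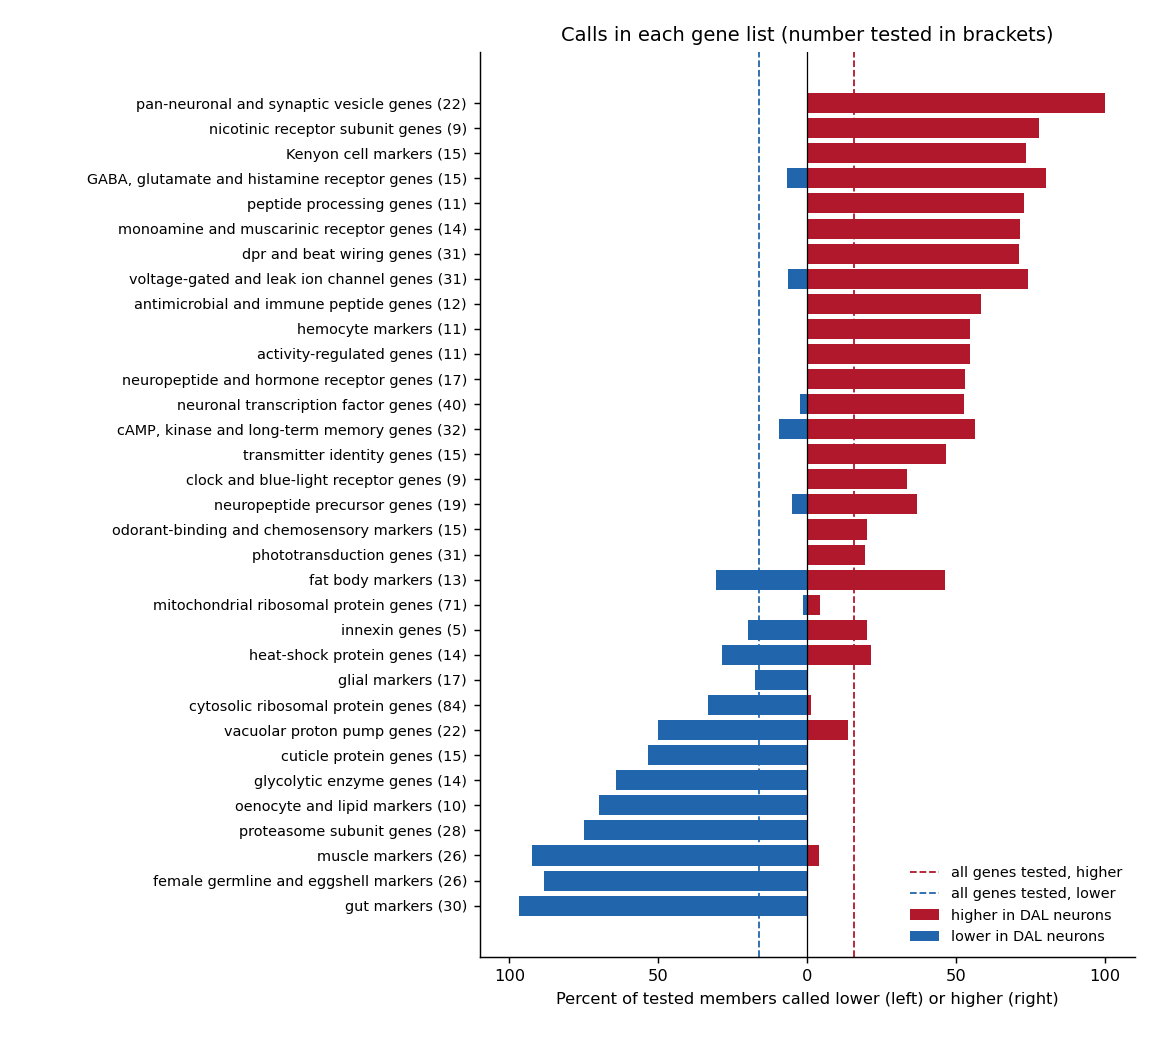
Percent of tested members of each gene list called higher (right) or lower (left) in DAL neurons by edgeR, for the lists with at least 5 tested members, with the number tested in brackets. Dashed lines give the share of all 8515 genes called higher (15.7%) and lower (16.2%). Most lists of neuronal genes extend mainly to the right, as do those of immune peptide and blood cell genes. The innexin list does not, with 1 of 5 higher and 1 lower. Lists of gut, muscle and female germline genes extend mainly to the left.

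Neuropeptide precursor genes varied between DAL libraries to different degrees. Of 42 in the deposited counts, 19 passed the low-count filter, 7 of them higher and 1 lower. With no filter on low counts, 40 were tested, 8 of them higher and 4 lower. Nplp1 had 19717, 9703, 4153, 5623 and 4119 CPM in neurons, against 6.76, 6.38, 19.0 and 9.54 CPM in flies, a log2 fold change of 8.75 ± 0.79 (adjusted p = 2.84e-05 by edgeR). The orcokinin precursor gene CG13565 had 1534, 426, 884, 563 and 444 CPM in neurons, against 1.82 to 3.55 CPM in flies. The proctolin precursor gene Proct had 1431, 613, 254, 927 and 478 CPM in neurons, against 2.55 to 8.12 CPM in flies. These 3 genes were thus high in each of the 5 neuron libraries. The diuretic hormone gene Dh31 was also above every fly library, but over a wider range, with 1012, 33.0, 80.7, 239 and 394 CPM in neurons and 1.38 to 5.84 CPM in flies. The names of Proct, CG13565, Dh31 and Mip were added after their values were seen.

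The remaining peptide genes varied widely between neuron libraries. Trissin had 26896 CPM in neuron library 2, 2.69% of its reads, and 15.7, 76.7, 0 and 0 CPM in neuron libraries 1, 3, 4 and 5, against 0 to 1.36 CPM in flies. Its call (log2 fold change 12.56 ± 4.07, adjusted p = 0.0354 by edgeR) was lost without any 1 of the 4 fly libraries (12.09 to 13.76), and without neuron library 2 the gene no longer passed the low-count filter. Trissin was also not called with limma's voom (3.38). The ion transport peptide gene itp had 17052 CPM in neuron library 5, but 7.43, 5.12, 7.20 and 4.04 CPM in neuron libraries 1 to 4, against 6.07 to 8.12 CPM in flies. It was not called (log2 fold change 8.45 ± 3.02, adjusted p = 0.0534 by edgeR), passed without any 1 of neuron libraries 1 to 4 (8.78 or 8.79), with library totals alone (8.96) and against whole flies of all drivers (8.72), and had a log2 fold change of −1.05 without neuron library 5. The neuropeptide F gene npf had 2967 CPM in neuron library 4, 343 CPM in neuron library 5 and 14.2 to 85.0 CPM in the others, against 0.227 to 0.729 CPM in flies. In that fit the log2 fold change of 9.85 ± 1.96 (adjusted p = 0.0024 by edgeR) was 7.44 without neuron library 4. The precursor gene Mip had 712 CPM in neuron library 1 and at most 0.569 CPM in the others. The short neuropeptide F gene sNPF had 1212 and 554 CPM in neuron libraries 2 and 5, and 33.9, 2.06 and 102 CPM in neuron libraries 1, 3 and 4, against 8.2 to 22.1 CPM in flies. Its call (log2 fold change 4.12 ± 1.42, adjusted p = 0.0458 by edgeR) was lost without any 1 fly library (3.79 to 4.65) and without neuron library 2, 4 or 5 (3.22, 4.37 and 3.82). The 1 lower member that passed the filter was Nplp3, with 52.3 to 494 CPM in neurons and 262 to 5753 CPM in flies. Its log2 fold change of −4.37 ± 1.07 (adjusted p = 0.00831 by edgeR) was −2.88 without fly library 3. Nplp3 was not called against whole flies of all drivers (−0.51, adjusted p = 0.673 by edgeR) or with limma's voom (−3.64).

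Over all genes, 283 reached 1000 CPM in a neuron library, and 3 of them stayed below 10% of that level in all other neuron libraries. These were Trissin, itp and AttC, an antimicrobial peptide gene with 1337 CPM in neuron library 3 and 0 to 24.3 CPM in the others. Among whole flies 229 genes reached 1000 CPM and none was restricted to 1 library in this way.

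**Figure D4:**
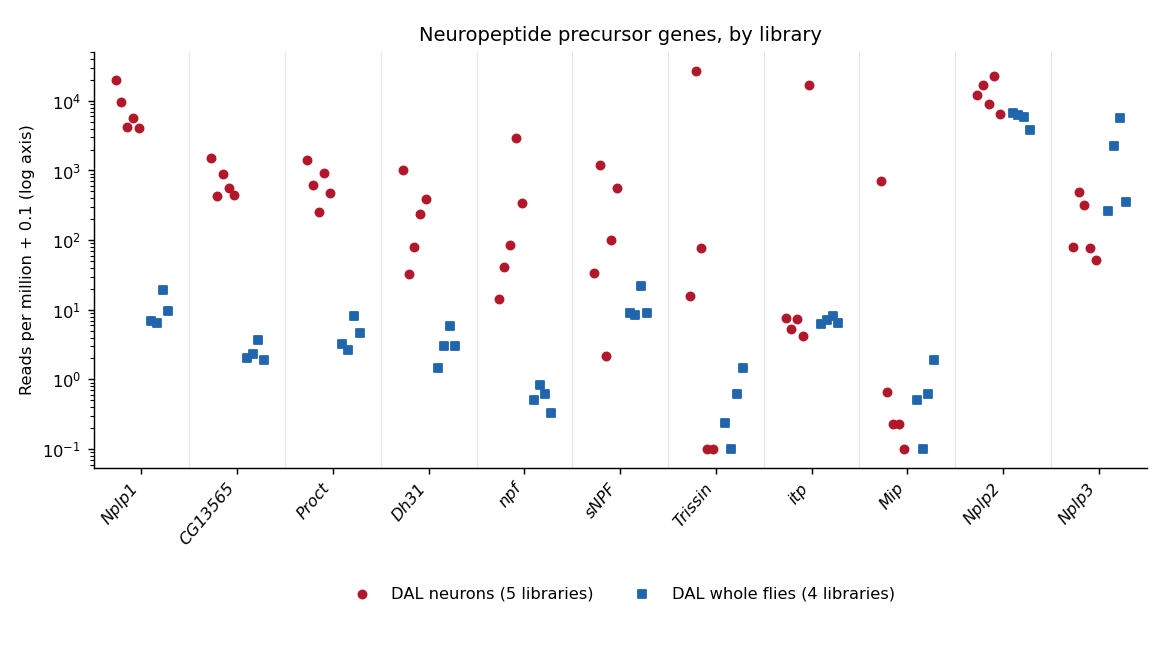
Level of 11 neuropeptide precursor genes in each library, in CPM plus 0.1 on a log axis, with DAL neurons as circles (5 libraries in order) and DAL whole flies as squares (4 libraries in order). Nplp1, CG13565 and Proct lie above whole flies in all 5 neuron libraries, whereas Trissin (26896 CPM), itp (17052 CPM) and Mip (712 CPM) are each high in 1 neuron library.

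Genes that process peptides were higher in DAL neurons for 8 of 11 members tested (median log2 fold change 3.99). The prohormone convertase gene amon had 1686, 1003, 1876, 1367 and 1203 CPM in neurons, against 1.79, 2.00, 9.90 and 2.95 CPM in flies. The log2 fold change was 7.55 ± 0.79 (adjusted p = 7.27e-05 by edgeR), or 8.50 without fly library 3. 7B2, which encodes a helper protein of that convertase, had 889 to 2631 CPM in neurons and 4.41 to 17.8 CPM in flies. Pal2, for an enzyme of peptide amidation, had 1029.7 to 2529.9 CPM in neurons and 9.66 to 15.7 CPM in flies. Neuron library 1 was the highest of the 5 for both genes, as it was for Nplp1.

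Receptors for peptides, amines and fast transmitters were higher in DAL neurons in most cases that passed the low-count filter. Of 17 neuropeptide and hormone receptor genes tested, 9 were higher and none was lower (median log2 fold change 3.68), and 21 of the 38 listed did not pass the low-count filter. Without whole-fly library 1, 2 or 4 the number higher was 3, 4 and 4. With no filter on low counts and all libraries kept, 10 of 37 were higher and 2 lower. Lgr1, a hormone receptor gene, had 239.7, 38.6, 40.2, 56.8 and 33.2 CPM in neurons and 0.364 to 1.27 CPM in flies. The allatostatin A receptor gene AlstR had 15.0 to 109 CPM in neurons and 1.24 to 1.82 CPM in flies. The receptor gene for short neuropeptide F, sNPF-R, had 0.455 CPM in neuron library 2, the library with the most sNPF, and 26.2 to 122 CPM in the others, against at most 0.547 CPM in flies. Of 14 monoamine and muscarinic receptor genes tested, 10 were higher and none was lower, and 5 were higher without any 1 of fly libraries 1, 2 and 4. DopEcR, a receptor for dopamine and ecdysteroids, had 270.3, 324, 193, 260.1 and 594 CPM in neurons and 5.24 to 14.2 CPM in flies. The dopamine receptor gene D2R had 42.0 to 188 CPM in neurons and reads in 1 fly library, library 3, at 1.78 CPM. A further dopamine receptor gene, DopR, had 12.9 to 203 CPM in neurons and 2.00 to 7.87 CPM in flies, and its call was lost without fly library 1, 2 or 4 (log2 fold changes 3.56, 3.43 and 3.49).

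Nicotinic acetylcholine receptor subunit genes were higher for 7 of 9 members tested (median log2 fold change 4.88). nAcRbeta-64B had 737, 509.9, 836, 672 and 1011 CPM in neurons, against 7.86, 11.5, 25.6 and 10.9 CPM in flies. nAcRalpha-30D had 335 to 952 CPM in neurons and 1.65 to 13.5 CPM in flies. Among GABA, glutamate and histamine receptor genes 12 of 15 tested were higher and 1 was lower (median log2 fold change 4.52). The GABA-gated chloride channel gene Rdl had 1313, 737, 1677, 1255 and 2628 CPM in neurons, against 11, 12.2, 42.4 and 12.9 CPM in flies. In that fit the log2 fold change was 5.46 ± 0.76 (adjusted p = 0.000356 by edgeR), or 6.17 without fly library 3. The metabotropic glutamate receptor gene mGluRA had 154 to 488 CPM in neurons and 2.62 to 5.08 CPM in flies, and the glutamate-gated chloride channel gene GluClalpha had 98.4 to 387 CPM in neurons and 3.17 to 14.7 CPM in flies. The 1 lower member that passed the low-count filter was clumsy, a kainate-type glutamate receptor gene. It had reads in neuron library 5 alone, at 0.0578 CPM, and 2.48 to 9.90 CPM in flies. With no filter on low counts, 12 of 23 members of that list were higher and 5 lower (median log2 fold change 3.81).

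Voltage-gated and leak channel genes were higher for 23 of 31 members tested and lower for 2 (median log2 fold change 3.98). The calcium-activated channel gene SK had 1047, 898, 1515, 1279 and 1959 CPM in neurons, against 5.79, 11.3, 28.7 and 9.76 CPM in flies. Shaker, Sh, had up to 2173 CPM in neurons and at most 58.9 CPM in flies, without overlap. CG4587 (stol), a calcium channel subunit gene, had 202 to 1241 CPM in neurons and 4.09 to 5.10 CPM in flies, a log2 fold change of 6.66 ± 0.72 (adjusted p = 8.23e-05 by edgeR). Both lower genes were scarce in neurons. Ir, an inward rectifier, had no reads in neuron libraries 1 to 3 and 0.652 and 1.04 CPM in neuron libraries 4 and 5, against 9.90 to 17.7 CPM in flies. CG8713 had no reads in any neuron library and 1.65 to 3.63 CPM in flies, at least 43.5-fold lower in neurons (against a floor of 3 reads over the group).

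Of 32 genes of cAMP signalling, kinases and long-term memory tested, 18 were higher and 3 were lower (median log2 fold change 1.67). CaMKII had 1534, 1303, 1638, 1458 and 3216 CPM in neurons, against 96.6, 99.8, 111 and 111 CPM in flies, a log2 fold change of 3.42 ± 0.46 (adjusted p = 0.000299 by edgeR). CrebB, listed as CrebB-17A, was low in both groups, with 9.46, 7.17, 18.9, 10.0 and 12.4 CPM in neurons and 4.00, 6.01, 4.82 and 5.00 CPM in flies. The groups did not overlap, yet the gene was not called (log2 fold change 0.52 ± 0.87, adjusted p = 0.717 by edgeR). The phosphodiesterase gene dnc had 571 to 1773 CPM in neurons and 56.2 to 82.7 CPM in flies. The adenylyl cyclase gene rut had 118, 8.08, 194, 92.9 and 217 CPM in neurons and 1.10 to 8.12 CPM in flies. The calmodulin gene Cam had 3841 to 5741 CPM in neurons and 1047 to 1238 CPM in flies. Its log2 fold change of 1.28 ± 0.33 (adjusted p = 0.0115 by edgeR) was 1.03 without fly library 2 and 1.02 without fly library 4, and both lost the call. The 3 lower members were the translation regulator gene exba (kra), with 346 to 680.2 CPM in neurons and 1379 to 2309 CPM in flies, the Notch gene N and the RNA-binding protein gene orb. orb, known for its part in oogenesis, had 0.13 to 19.2 CPM in neurons and 54.1 to 123 CPM in flies. N had 15.7 to 139 CPM in neurons and 66.5 to 152 CPM in flies. The log2 fold change of −1.79 ± 0.59 (adjusted p = 0.0375 by edgeR) lost the call without fly library 1, 2 or 4 and without neuron library 1, 2, 3 or 5 (−1.94 to −1.55), and was −2.54 without neuron library 4.

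Clock genes were called for 3 of 9 members tested, all higher, beside 15.7% of all genes higher. With the size factors of DESeq2 2 were higher, and 1 with a minimum fold of 2. Limma's voom gave 3 higher and 1 lower. With library totals alone 4 were higher, and against whole flies of all drivers 7 of 11 were higher and 1 lower. The clock transcription factor gene Pdp1 had 938, 955, 1531, 1166 and 1705 CPM in neurons, against 93.7, 95.1, 162 and 88.6 CPM in flies (log2 fold change 2.74 ± 0.46, adjusted p = 0.00101 by edgeR). The repressor gene cwo had 52.8 to 129 CPM in neurons and 12.4 to 17.3 CPM in flies, and the kinase gene sgg had 52.6 to 235 CPM in neurons and 17.1 to 31.0 CPM in flies. Their calls were lost without fly library 1, 2 or 4 (log2 fold changes 1.59 to 1.66 for cwo and 1.53 to 1.69 for sgg), and that of sgg also without neuron library 3 (1.52). The blue-light receptor gene cry had 46.1, 85.5, 36.9, 16 and 187 CPM in neurons, against 13.5, 14, 16.2 and 15.9 CPM in flies. Neuron library 4 lay within the range of flies, and cry was not called (log2 fold change 1.63 ± 0.74, adjusted p = 0.125 by edgeR). Without neuron library 5 the log2 fold change was 0.75. It was called higher with library totals alone (2.32) and against whole flies of all drivers (1.95). The period gene per had 2.16, 6.49, 0, 1.17 and 32.3 CPM in neurons and 0.276 to 0.761 CPM in flies, and did not pass the low-count filter. Its partner tim had 2.43, 24.8, 195, 58.7 and 11.4 CPM in neurons and 5.45 to 12.0 CPM in flies. It was not called against DAL whole flies, but was higher against whole flies of all drivers (log2 fold change 1.87).

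Of 40 neuronal transcription factor and RNA-binding protein genes tested, 21 were higher and 1 was lower (median log2 fold change 2.95), and 46 of the 86 listed did not pass the low-count filter. The Hox gene Ubx, which specifies segments of the thorax and abdomen, had 1454, 598, 584, 501 and 314 CPM in neurons, against 2.48, 4.92, 7.36 and 4.09 CPM in flies. In that fit the log2 fold change was 6.33 ± 0.60 (adjusted p = 3.96e-05 by edgeR). The 2 brain libraries of the series, of the UAS-GFP background, held 1.5 and 0.44 CPM of Ubx. chinmo, a zinc-finger gene of early-born neurons, had 380.4 to 1032 CPM in neurons and 4.41 to 18.2 CPM in flies. The RNA-binding protein gene Imp had 465 to 977 CPM in neurons and 71.8 to 109.7 CPM in flies. The ecdysone-induced gene Eip93F had 284 to 706 CPM in neurons and 19.9 to 76.1 CPM in flies. The 1 lower member that passed the filter was the POU gene nub. It had reads in neuron library 4 alone, at 0.13 CPM, and 1.79 to 3.30 CPM in flies. With no filter on low counts, 80 members of the list were tested, 21 of them higher and 8 lower (median log2 fold change 1.48). With limma's voom and the filter, 19 were higher and 6 lower.

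Genes reported to follow neuronal activity were higher for 6 of 11 members tested and lower for none, and for 2 with the size factors of DESeq2 or without any 1 of fly libraries 1, 2 and 4. CG14186 had 141, 105, 148, 157 and 124 CPM in neurons, against 0.364 to 1.10 CPM in flies, a log2 fold change of 6.82 ± 0.64 (adjusted p = 3.04e-05 by edgeR). CG17778 had 52.6 to 166 CPM in neurons and 0.965 to 3.55 CPM in flies. The dpr and beat genes, which encode cell surface proteins used in choosing synaptic partners, were higher for 22 of 31 members tested and lower for none (median log2 fold change 5.13). dpr7 had 716, 569.9, 484, 564 and 798 CPM in neurons, against 4.00, 4.55, 14.2 and 7.04 CPM in flies. dpr8 had 359 to 809.6 CPM in neurons and 2.73 to 7.36 CPM in flies. Of 5 innexin genes tested, which build gap junctions, 1 was higher and 1 lower, near the shares of all genes (15.7% and 16.2%). The neuronal shakB was higher, with 101 to 518 CPM in neurons and 4.27 to 11.7 CPM in flies. inx2 was lower, with 5.83 to 55.3 CPM in neurons and 61.8 to 87.1 CPM in flies. The call of inx2 (log2 fold change −1.74 ± 0.56, adjusted p = 0.0329 by edgeR) was lost without fly library 1, 2 or 3 (−1.87, −1.87 and −1.67) and without neuron library 2 (−1.69), and also with library totals alone (−0.92).

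Markers of Kenyon cells, the intrinsic cells of the mushroom body, were higher than in whole flies for 11 of 15 members tested (7 without fly library 1, 2 or 4), and their sum was 2371 to 5416 CPM in neurons and 218 to 375 CPM in flies. Many of them are used by other neurons too. The Pax6 gene ey, which defines Kenyon cells more closely, had 15.4, 0.114, 0, 45.1 and 8.90 CPM in neurons. Another Kenyon cell marker, dac, was called higher by edgeR. Its log2 fold change was 6.19 without fly library 2 and 7.92 without fly library 3. The part of Kenyon cell transcripts in the results above was not tested.

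Genes of the gut made up the steepest part of the lower side. Of 30 gut markers tested, 29 were lower in DAL neurons and none was higher (median log2 fold change −11.74). The list summed to 18.7 to 491 CPM in neurons and 31307 to 72248 CPM in flies. The trypsin gene alphaTry had 1.76, 0, 1.16, 1.70 and 0.924 CPM in neurons, against 12942, 6692, 7378 and 11942 CPM in flies, a log2 fold change of −13.85 ± 1.04 (adjusted p = 1.29e-05 by edgeR). The serine protease gene Jon65Aiv had 0, 0.114, 0.129, 0.261 and 0.231 CPM in neurons, against 6709, 2857, 2670.5 and 8213 CPM in flies. The lysozyme gene LysC had no reads in any neuron library and 399 to 1072 CPM in flies, at least 12200-fold lower in neurons (against a floor of 3 reads over the group). The trypsin genes deltaTry, gammaTry and CG30031 also had none, with 394 to 764 CPM in flies and at least 9440-fold to 9660-fold lower levels in neurons. Reads of these close copies may have been shared out between them, so their single values are uncertain. Pebp1, CG11911, CG17192, CG10911, CG42397 and Jon99Fii completed most of the 12 largest falls. Each had at most 0.643 CPM in neurons and 117 to 6488 CPM in flies. The last of the 12 was verm, a chitin deacetylase gene, with reads in neuron library 3 alone, at 0.129 CPM, and 5.93, 464, 1327 and 27.7 CPM in flies. Its call was lost with limma's voom (log2 fold change −11.12).

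Female germline and eggshell genes were lower in DAL neurons for 23 of 26 members tested (median log2 fold change −10.13). The chorion gene Cp36 had at most 1.76 CPM in neurons, and 1797, 5393, 47.0 and 10702 CPM in flies. Fly library 3 was also lowest for the chorion gene Cp15, with 83.5 CPM against 7089 to 17849.7 CPM in the other fly libraries and at most 40.7 CPM in neurons. The lower calls of Cp36 and Cp15 were lost with limma's voom (log2 fold changes −11.99 and −11.35). The oocyte gene osk had 0, 0, 0.257, 1.30 and 60.2 CPM in neurons and 771 to 2291 CPM in flies, a log2 fold change of −7.55 ± 2.03 (adjusted p = 0.014 by edgeR) that was −12.72 without neuron library 5 and −8.15 without fly library 3. Male germline and accessory gland genes gave 2 tested members of 35, with no call. Oenocyte and lipid genes were lower for 7 of 10 members tested (median log2 fold change −9.33). Cyp4g1, the cytochrome P450 gene that oenocytes use to make cuticular hydrocarbons, had 0.135, 0, 2.96, 2.48 and 20.8 CPM in neurons, against 29412, 14613, 28126 and 25265 CPM in flies. Its log2 fold change of −12.75 ± 1.85 (adjusted p = 0.000449 by edgeR) was −14.84 without neuron library 5.

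Muscle genes were lower in DAL neurons for 24 of 26 members tested and higher for 1 (median log2 fold change −7.68). They summed to 873 to 2313 CPM in neurons and 15605 to 168033 CPM in flies. The myosin heavy chain gene Mhc had 1.35, 39.7, 33.0, 15.9 and 3.64 CPM in neurons, against 149, 1746, 6005 and 319.9 CPM in flies. The log2 fold change of −7.75 ± 1.44 (adjusted p = 0.0017 by edgeR) was −5.94 without fly library 3. Without that library 21 members were lower and 1 higher, with a median of −6.54. With limma's voom 18 members were lower and none higher, and Mhc was not called (−7.21). The actin gene Act87E, with 0.522 to 5.54 CPM in neurons and 1285 to 7640.1 CPM in flies, did not overlap either. The higher member was Msp-300, a nesprin gene also used outside muscle, with 665 to 1195 CPM in neurons and 147 to 336 CPM in flies. Its call (log2 fold change 1.27 ± 0.44, adjusted p = 0.0442 by edgeR) was lost without fly library 1, 2 or 4 and without neuron library 3, 4 or 5 (0.94 to 1.23). Cuticle protein genes were lower for 8 of 15 members tested, and 108 of 123 did not pass the low-count filter. Cpr100A had 0, 6.83, 0, 0 and 0.0578 CPM in neurons and 5.24, 873, 2576 and 17 CPM in flies, with fly libraries 2 and 3 far above the others. In that fit the log2 fold change of −10.35 ± 2.42 (adjusted p = 0.00658 by edgeR) was −8.34 without fly library 3 and −15.18 without neuron library 2. Cpr100A was not called with limma's voom (−9.98).

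Genes of fat body, blood cells and immunity, unlike those of gut and muscle, were plentiful in the DAL libraries. Blood cell markers were higher for 6 of 11 members tested and lower for none (median log2 fold change 3.18), and summed to 16339, 17359, 10037, 30959 and 6728 CPM in neurons, against 6934, 6455, 6107 and 3957 CPM in flies. Most of that sum is Nplp2, with 12202, 16856, 8966, 22713 and 6488 CPM in neurons and 3762 to 6749.6 CPM in flies. Nplp2 was not called (log2 fold change 0.45 ± 0.41, adjusted p = 0.475 by edgeR), but was called higher with library totals alone (1.25) and against whole flies of all drivers (1.04). Without neuron library 4, 4 blood cell markers were higher and 1 lower, with a median of 1.68. The clotting factor gene Hml had 130, 45.1, 253, 1681 and 12.5 CPM in neurons, against 2.19 to 7.31 CPM in flies, and its log2 fold change of 5.60 ± 1.42 (adjusted p = 0.0103 by edgeR) was 3.56 without neuron library 4. The prophenoloxidase gene PO45, used by blood cells in melanisation, had 2774, 46.7, 87.9, 2671 and 27.6 CPM in neurons and 0.508 to 4.77 CPM in flies. Its relative proPO-A1 was likewise high in neuron libraries 1 and 4, with 919 and 1747 CPM, and had 14.6 to 46.4 CPM in the other neuron libraries. The 2 brain libraries summed to 454 and 489.7 CPM for the blood cell list.

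Of 13 fat body markers tested, 6 were higher and 4 were lower, with sums of 27265, 56242, 38107, 42028 and 14747 CPM in neurons, 42151, 28896, 14663 and 41551 CPM in flies, and 873 and 979 CPM in the 2 brain libraries. Their median log2 fold change of 1.89 was −0.06 with DESeq2, and without fly library 1 or 4 the calls were 4 higher and 1 lower. The yolk protein gene Yp1 had 9790.4, 20774, 13779, 14245 and 5764 CPM in neurons, against 22462, 18220.1, 7595 and 23545 CPM in flies. Levels overlapped, and the lower calls of Yp1 (log2 fold change −1.22 ± 0.40, adjusted p = 0.0377 by edgeR) and Yp2 (−1.34 ± 0.43, adjusted p = 0.0352 by edgeR) were lost with library totals alone (−0.48 and −0.53). They were also lost without 1 library, for Yp1 without fly library 1, 2 or 4 or neuron library 1, 3, 4 or 5 (−1.43 to −1.05). For Yp2 this held without fly library 1 or 4 or neuron library 1, 3, 4 or 5 (−1.34 to −1.12). The third yolk gene, Yp3, had 4487 to 19599 CPM in neurons and 1579 to 5005 CPM in flies, and was not called (log2 fold change 0.74 ± 0.42, adjusted p = 0.225 by edgeR). Yp3 was called higher with library totals alone (1.5) and against whole flies of all drivers (0.90). The transferrin gene Tsf1 had 337, 556, 1654, 2707 and 350.3 CPM in neurons, against 9.31 to 59.8 CPM in flies, a log2 fold change of 4.40 ± 0.91 (adjusted p = 0.00305 by edgeR) that was 3.75 without neuron library 4. The larval serum protein gene Lsp1gamma was lower, with reads in neuron library 4 alone, at 0.13 CPM, and 2.73 to 25.6 CPM in flies.

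Immune peptide genes were higher for 7 of 12 members tested and lower for none (median log2 fold change 4.44). With no filter on low counts, 7 of 21 were higher and 2 lower (median 2.83). The list summed to 3241 to 16850.1 CPM in neurons and 368 to 701 CPM in flies, and to 69.0 and 83.2 CPM in the 2 brain libraries. IM3 (BomS3) had 1317, 3082, 2659, 4793 and 922 CPM in neurons, against 25.4, 138, 238 and 28.6 CPM in flies. IM10 (BaraA) had 306 to 3903 CPM in neurons and 21.6 to 77.4 CPM in flies, a log2 fold change of 4.45 ± 0.82 (adjusted p = 0.00162 by edgeR). Of 15 odorant-binding and chemosensory markers tested, 3 were higher, near the share of all genes (15.7%), and none was lower. The median log2 fold change of that list, 0.98, turned to −1.22 with limma's voom, to −0.20 in the libraries labelled 2 lanes and to −0.41 without neuron library 2. Obp99a had 99.6 to 397 CPM in neurons and 2.28 to 37.5 CPM in flies. The part of fat body, blood cell or antennal transcripts in the results on neuronal genes was not tested.

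Of 17 glial genes tested, none was higher in DAL neurons and 3 (Gs2, Gli and inx2) were lower, near the share of all genes (16.2%). With library totals alone 1 was higher and 1 lower, and against whole flies of all drivers 6 of 19 were higher and 3 lower. The list summed to 637 to 1194 CPM in neurons and 658 to 1484 CPM in flies. The median log2 fold change of the list, −0.27, was 0.51 with library totals alone and 0.13 against whole flies of all drivers. The glial factor gene repo had 0, 0.228, 0, 0.522 and 3.12 CPM in neurons. Gs2, a glutamine synthetase gene, had 324, 214, 76.0, 124 and 42.7 CPM in neurons and 260.3 to 748 CPM in flies. Its log2 fold change of −2.36 ± 0.58 (adjusted p = 0.00881 by edgeR) was −1.76 without fly library 3 and was not called with library totals alone (−1.39). Phototransduction genes were higher for 6 of 31 members tested, near the share of all genes, and 16 were higher with library totals alone. The rhodopsin gene ninaE, made by photoreceptors, had 2672, 3199.6, 6004, 1933 and 269 CPM in neurons, against 3245, 2261, 3483 and 2998 CPM in flies, and was not called (adjusted p = 0.307 by edgeR). The arrestin genes Arr2 (1237, 1907, 3409, 1684 and 126 CPM in neurons) and Arr1 (787, 1036, 1247, 803 and 53.8 CPM in neurons) were likewise lowest in neuron library 5. Flies had 822 to 1345 CPM of Arr2 and 103 to 184 CPM of Arr1. Arr1 was not called (log2 fold change 1.62 ± 0.67, adjusted p = 0.0921 by edgeR), but was called higher without neuron library 5 (1.93), with library totals alone (2.49) and against whole flies of all drivers (2.12).

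Genes used by all cells divided by system. Glycolytic enzyme genes were lower in DAL neurons for 9 of 14 members tested and higher for none (median log2 fold change −1.93). Gapdh2 had 1422, 1558, 1252, 1007 and 1633 CPM in neurons, against 8062, 9312, 4719.6 and 6864 CPM in flies, a log2 fold change of −3.11 ± 0.32 (adjusted p = 5.38e-05 by edgeR). Proteasome subunit genes were lower for 21 of 28 members tested and higher for none (median log2 fold change −2.19). Prosbeta3 had 83.8 to 252 CPM in neurons and 212 to 449 CPM in flies, and Pros45 had 56.8 to 180.5 CPM in neurons and 251 to 480 CPM in flies. Of 84 cytosolic ribosomal protein genes tested, 28 were lower and 1 was higher. With library totals alone these numbers were 6 and 8, and the median log2 fold change moved to 0.06, against −0.73 with TMM scaling. RpS3A had 1960.3 to 3847 CPM in neurons and 6385 to 12735 CPM in flies. Of 71 mitochondrial ribosomal protein genes tested, 3 were higher and 1 was lower, below the shares of all genes (15.7% and 16.2%). With library totals alone 13 were higher and none lower. Against whole flies of all drivers 27 were higher and 8 lower, in a fit that called 3320 genes higher and 2996 lower over all. Their median of 0.23 became −0.24 with the size factors of DESeq2 or with DESeq2, −0.21 with voom and −0.08 without neuron library 5.

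Proton pump and heat-shock genes held members that moved in opposite directions. Of 22 vacuolar proton pump genes tested, 3 were higher in DAL neurons and 11 were lower, or 5 and 6 with library totals alone. Over all genes tested, 15.7% were higher and 16.2% were lower, so the number higher was near that share. Vha68-1 had 1213, 310, 902, 784 and 728 CPM in neurons, against 38.3, 65.4, 137 and 50.2 CPM in flies (log2 fold change 2.59 ± 0.57, adjusted p = 0.00446 by edgeR). Its paralogue Vha68-2 had 46.6, 44.0, 49.6, 122 and 8.95 CPM in neurons, against 761, 1006, 776 and 1022 CPM in flies (log2 fold change −4.79 ± 0.62, adjusted p = 0.00024 by edgeR), or −5.39 without neuron library 4. Likewise Vha100-1 was higher, with 209 to 411 CPM in neurons and 34.6 to 64.3 CPM in flies, whereas Vha100-2 was lower, with 1.10 to 37.3 CPM in neurons and 167 to 249.6 CPM in flies. VhaM9.7-a had 775 to 996 CPM in neurons and 2.27 to 18 CPM in flies. The names Vha68-2 and Vha100-2 were added after their values were seen. Of 14 heat-shock protein genes tested, 3 were higher and 4 were lower, beside 15.7% and 16.2% of all genes. The number higher was thus near that share. The median log2 fold change of 0.31 was −0.04 with the size factors of DESeq2, −0.11 with DESeq2, −0.86 with voom, −0.10 without fly library 1 and −0.66 without neuron library 3. It was 1.19 with library totals alone (4 higher, 1 lower), 1.15 without fly library 3 and 3.05 against whole flies of all drivers (10 higher, 4 lower). Without fly library 1, 2 or 4, 1 was lower. Hsp83, the fly Hsp90, had 1244, 605, 597, 568 and 586 CPM in neurons, against 12952, 14515, 6291 and 14282 CPM in flies (log2 fold change −4.80 ± 0.36, adjusted p = 1.2e-05 by edgeR). The small heat-shock gene Hsp67Bc was higher, with 88.7 to 482 CPM in neurons and 0.681 to 2.79 CPM in flies, as was Hsp23, with 52.8 to 652 CPM in neurons and 0.454 to 3.05 CPM in flies.

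The same neuron-to-fly difference was available for 3 other classes harvested as 4 cells a library, V3, R27G01 and 3-86, each with whole flies of its own driver. The difference in DAL was set against the mean of the other 3 in 1 fit of 15 further neuron libraries and 10 further whole-fly libraries. Of 9898 genes tested by edgeR, 4 (0.0404%) had a larger neuron-over-fly ratio in DAL and 14 (0.141%) a smaller one, with 844 at an unadjusted p under 0.05. DESeq2 gave 190 and 227. Without DAL whole-fly library 3, CG2016 and Nplp1 alone passed, and without DAL neuron library 1, 3 genes passed in each direction. The runs of 3-86 neuron library 3 did not match each other (chi-square per degree of freedom 229.5 between its runs, against 1.016 to 1.039 for the other 3-86 neuron libraries), and without it 4 genes passed above and 13 below. The neuron side of Nplp1 set DAL apart, with 4119 to 19717 CPM in DAL neurons, against 73.2 to 493 in V3, 239 to 591 in R27G01 and 93.6 to 729.6 in 3-86 neurons, while whole flies of the 4 drivers had 2.15 to 19.0 CPM. The class difference was 4.41 ± 0.73 on the log2 scale (adjusted p = 0.00424 by edgeR), or 5.08 without DAL whole-fly library 3.

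CG2016 (Jhbp2) had 36.2 to 676 CPM in DAL neurons, at most 0.828 CPM in V3 neurons and no reads in R27G01 and 3-86 neurons. Its class difference was 11.85 ± 1.65 (adjusted p = 0.00122 by edgeR), 12.78 without DAL whole-fly library 3 and 11 without DAL neuron library 1. SP1029, a peptidase gene, had 163 to 924.1 CPM in DAL neurons and at most 0.339, 11.2 and 4.89 CPM in V3, R27G01 and 3-86 neurons. Its class difference of 8.70 ± 1.55 (adjusted p = 0.00572 by edgeR) was 8.03 without DAL neuron library 1 and 10.09 without R27G01 neuron library 4, and lost the call without DAL whole-fly library 3 (8.70, adjusted p = 0.0678). CG15863 had 1815 to 3219 CPM in DAL neurons and at most 142 CPM in neurons of the other classes, with a class difference of 6.87 ± 1.5 (adjusted p = 0.0467 by edgeR). That call was lost in 27 of 34 fits without 1 library, and the values of all 34 lay between 6.66 and 7.45. CG2016 and Nplp1 kept their calls in each fit without 1 library.

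The neuron-to-fly ratios of sesB and Ald were smaller in DAL than in the mean of the other classes. The mitochondrial transporter gene sesB had 1319 to 1828 CPM in DAL neurons and 3927, 7566, 19405 and 4235 CPM in DAL whole flies, against 2171 to 5926 CPM in whole flies of the other drivers. In neurons of the other classes sesB had 1949.7 to 4704 CPM in V3, 2099 to 2767 in R27G01 and 1749 to 4524 in 3-86. Its class difference of −2.70 ± 0.47 (adjusted p = 0.00572 by edgeR) was −1.67 without DAL whole-fly library 3. The glycolytic gene Ald had 1173 to 2075 CPM in DAL neurons, against 2122 to 3910.3 in V3, 2749.8 to 4476 in R27G01 and 2043 to 8432 in 3-86 neurons. Whole flies had 2123 to 7655 CPM of Ald for DAL and 744 to 4798 CPM for the other drivers. Ald had a class difference of −2.52 ± 0.45 (adjusted p = 0.00572 by edgeR), or −1.73 without DAL whole-fly library 3. For cpx the neurons differed too, with 1444 to 2763 CPM in DAL, against 6674 to 13372 in V3, 4229 to 7809 in R27G01 and 1035 to 9740 in 3-86 neurons. Its class difference was −2.90 ± 0.52 (adjusted p = 0.00572 by edgeR), or −2.05 without DAL whole-fly library 3. The diuretic hormone gene Dh44 had 1.29 to 64.9 CPM in DAL neurons, against 10.4 to 144 in V3, 94.1 to 513 in R27G01 and 2.05 to 443 in 3-86 neurons. V3 whole flies had no reads of Dh44, and its class difference was −7.69 ± 1.52 (adjusted p = 0.0159 by edgeR). Without DAL whole-fly library 3 the calls of sesB, Ald, cpx and Dh44 (−5.85) were all lost, and that of Dh44 also without DAL neuron library 1 (−7.80). Against V3 alone, sesB (−2.51), Ald (−1.97), cpx (−2.97) and Dh44 (−8.40) were not called either.

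**Figure D5:**
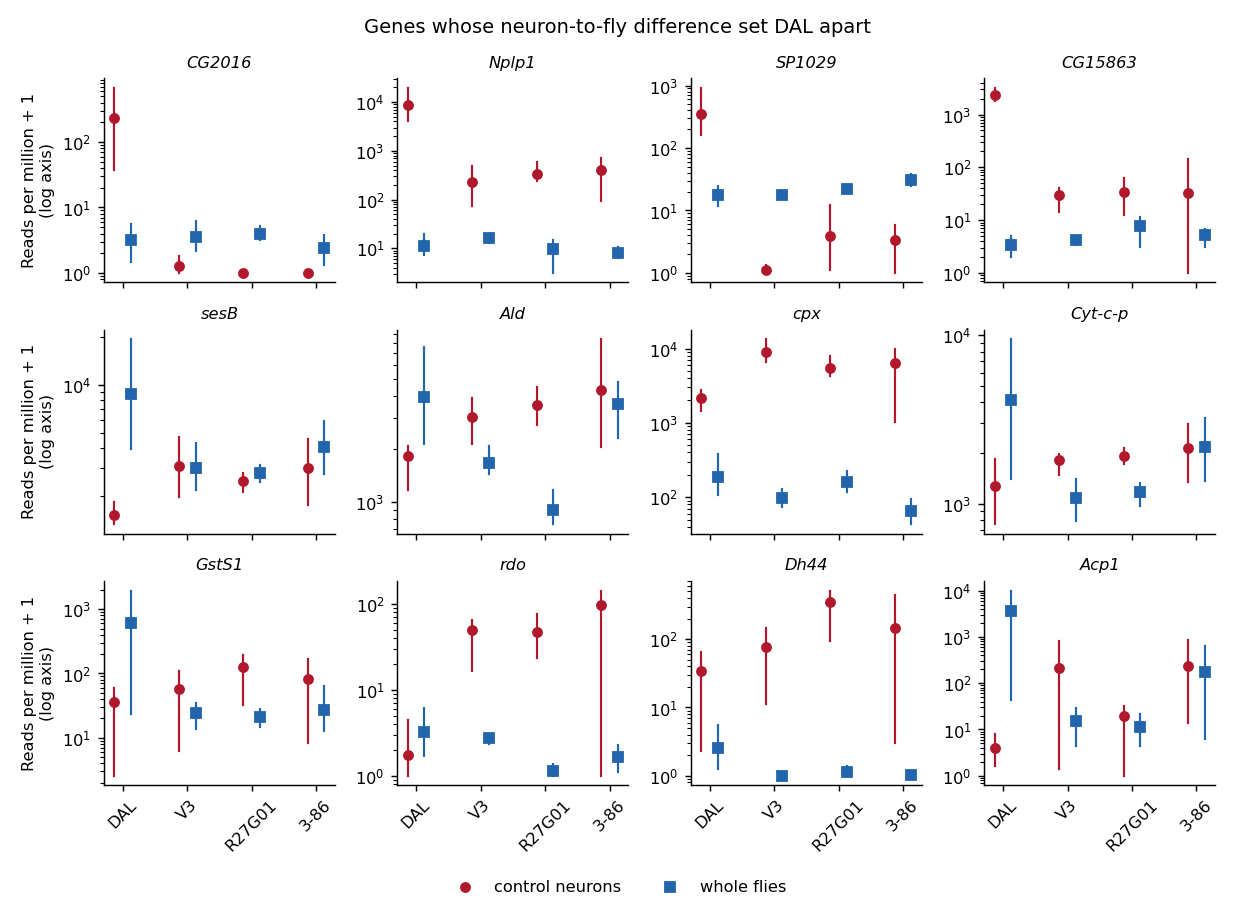
Mean (symbol) and range (line) over libraries of 12 genes whose neuron-to-fly ratio differed between DAL and the mean of V3, R27G01 and 3-86, in CPM plus 1 on a log axis, with control neurons as circles and whole flies of the same driver as squares. Nplp1 and CG15863 are highest in DAL neurons, whereas for Acp1, GstS1 and sesB the DAL whole flies reach the highest levels.

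DAL neurons of trained animals were set against the same 4 whole-fly libraries, so the comparison shares its flies with the one above. Of 8348 genes tested, 1320 (15.8%) were higher and 1225 (14.7%) lower in trained DAL neurons by edgeR. CG4577 had 12039, 9016, 7332, 4551 and 28584 CPM in trained DAL neurons, with a log2 fold change of 10.01 ± 1.18, beside 10.38 ± 0.95 for control DAL neurons. Nplp1 had 7899, 5299, 2683, 508 and 28082 CPM in trained DAL neurons, with a log2 fold change of 8.73 ± 1.37, beside 8.75 ± 0.79. Ubx had 261 to 2706 CPM and VGlut 1020.4 to 2446 CPM in trained DAL neurons. The genes that were high in 1 control library were uneven here too. Trissin had 6459 CPM in 1 trained library and 0.274 to 159.7 CPM in the others. itp had 20698 and 3159.6 CPM in 2 trained libraries and 19.4 to 166 CPM in the other 3, and npf had 1253 CPM in 1 and 3.01 to 199.7 CPM in the others. Gad1 had 3533 and 6518 CPM in 2 trained libraries and 20.9 to 573 CPM in the other 3.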

How the data were processed

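RNA from 4 patched DAL neurons or from whole flies was amplified with a SMARTer kit before sequencing, per the labels' protocols. The authors deposited raw read counts per gene for each run. Cutadapt, TopHat2, Bowtie, HTSeq and DESeq2 1.4 are named in the submitters' processing notes. Amplified reads without molecular identifiers are not independent molecules. Runs of a library were summed (3 of 5 neuron libraries and 4 of 4 fly libraries had 2 runs), and CPM are deposited counts per 1000000 counted reads.

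Fold changes came from edgeR 4.0.16 in R 4.3.3 (TMM scaling, low-count filter, quasi-likelihood test), with Benjamini-Hochberg adjustment over all genes tested and a threshold of 0.05. limma 3.58.1 and DESeq2 1.42.0 gave alternatives, and the procedure was tested on simulated data. Close gene copies (yolk, trypsin, heat-shock and ribosomal genes) may share reads and are uncertain. Antisense or overlapping genes may also share reads. Named genes were the 12 with the largest change in each direction (mean of at least 50 CPM, no overlap), up to 4 leading members of each list and up to 3 called against it, 7 genes earlier described in DAL neurons, the 15 with the largest share of reads, and up to 8 per direction for the class difference. Further called list members were named after their values were seen. Members and lists were chosen with earlier results of these data known. Newer gene names are from RefSeq. Leaving out each library, other scalings, other filters and other fly libraries were tried.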

Additional observations from a re-analysis of the deposited data

Results flagged for a closer look

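In 49 of 366 groups of values of named genes, 1 library stood apart from the rest of its group by Dixon's criterion. Chance alone meets it in about 5% of groups only where values are continuous and normal. A gene with reads in 1 library of its group alone always meets it, so the 49 groups cannot be weighed against 5%. Neuron library 5 accounted for 15 of the 49 and whole-fly library 3 for 15.

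Neuron library 5 was high for itp (17052 CPM, others 4.04 to 7.43), CaMKII (3216 CPM, others 1303 to 1638), osk (60.2 CPM, others 0 to 1.30) and Act79B (28.8 CPM, others 0.683 to 2.84). It was low for Arr1 (53.8 CPM), inx2 (5.83 CPM), Obp99c (171 CPM), RpL34b (66.8 CPM) and GstS1 (1.56 CPM). Reads of clumsy, CG11911 and CG17192 (0.0578 CPM each), eloF and CG17560 (0.116 CPM each) and Gli (0.404 CPM) were found in that neuron library alone. These levels are only a few reads, and neuron library 5 was the deepest. It had 17312126 counted reads, against 7399883 to 8786859 in the other neuron libraries.

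Neuron library 1 was high for Pal2 (2529.9 CPM), Lgr1 (239.7 CPM), Hsp83 (1244 CPM), SP1029 (924.1 CPM) and Jon65Aiii (4.73 CPM), and had 0 reads of VGAT and Mlc1. Neuron library 2 was low for rut (8.08 CPM) and high for Cpr100A (6.83 CPM) and Acp65Aa (0.797 CPM). Neuron library 3 was high for Hsp26 (935 CPM) and verm (0.129 CPM) and low for Ald (1173 CPM). Neuron library 4 alone, or nearly alone, held reads of rdo (3.39 CPM), CG42397 (0.261 CPM), nub (0.13 CPM) and Lsp1gamma (0.13 CPM).

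Whole-fly library 3 was high for CR31451 (198 CPM), fne (41.9 CPM), Snap25 (84.0 CPM), sNPF (22.1 CPM), 7B2 (17.8 CPM), DopR (7.87 CPM), D2R (1.78 CPM), Rdl (42.4 CPM), mGluRA (5.08 CPM), Pdp1 (162 CPM), VhaM9.7-a (18 CPM) and Vha16-1 (5758 CPM). It was low for Ef1alpha48D (42064 CPM, others 63972 to 64876), Hsp83 (6291 CPM) and osk (771 CPM). Whole-fly library 2 was low for Vm34Ca (499 CPM, others 3266 to 3574) and alone held reads of CG7918 (0.364 CPM).

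The neuron-to-fly difference in DAL differed from the mean of V3, R27G01 and 3-86 by edgeR's interaction test for 12 genes named. The log2 differences were 11.85 for CG2016, 8.70 for SP1029, 6.87 for CG15863 and 4.41 for Nplp1. On the lower side they were −12.43 for Acp1, −8.44 for rdo, −7.69 for Dh44, −6.47 for GstS1, −2.90 for cpx, −2.70 for sesB, −2.54 for Cyt-c-p and −2.52 for Ald.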

How the results depend on the processing

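Of 160 named genes called between DAL neurons and whole flies, none changed direction under any alternative, 128 kept their call in every alternative and 138 in every fit without 1 library. Many of them were named for their values in these same data, so these numbers do not describe the called genes that were not named. Of the genes not called, Hsromega turned to −0.06 with the size factors of DESeq2 and with DESeq2, itp to −1.05 without neuron library 5 (8.79 at most without another neuron library), and Arr2 (−0.69 without neuron library 3) to 0.63 with library totals, 0.84 against flies of all drivers and 0.10 without neuron library 5. The number of genes higher was 3320 against flies of all drivers, and 949 to 1417 without 1 library. The number lower was 2996 against flies of all drivers, 2685 with DESeq2, 2615 with voom, 2473 with the spread shared over all groups, 2213 without a filter and 825 with at least 10 CPM in 4 libraries, and 1253 to 1465 without 1 library. Fewer genes are tested under the stricter filter, and more without one; for the rest the cause was not tested. For the class difference, 18 genes were called in all, 6 with V3 alone, 417 with DESeq2, and 2 to 30 without 1 library (28 without DAL neuron library 2, 30 without V3 whole-fly library 4). Trained neurons against flies gave 3988 calls with DESeq2, against 2545, and 2073 to 2809 without 1 library. The difference in genes detected was −2841 to −2674 without 1 library. No paired analysis was possible because neurons and whole flies come from separate preparations whose replicate numbers only name libraries.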
